A study of Homo sapiens with 18 samples.

Results

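The genes described here are AK4, CDK6, VCAN, BAALC, CHP1 and CCM2L, 6 of the 57736 genes in the count table and 6 of the 17317 that passed the filter on low counts. They were picked for the size of the difference in their counts between XBP1 knockdown and control cells. Of them, 4 (AK4, CDK6, VCAN, BAALC) were on the higher side and 2 (CHP1, CCM2L) on the lower side. The knockdown values below are therefore a description of that choice and carry no test. Of the comparisons tested for the 6 genes, the tunicamycin response within CARM1 knockout cells is the one that uses none of the libraries behind the choice; the others are contrasts other than the one that chose the genes, but they use the same control libraries. All libraries are described as A1847, an established human ovarian cancer cell line, and this identity was not tested here. The line had 3 forms: control cells with wild-type CARM1 and XBP1, CARM1 knockout cells with wild-type XBP1, and XBP1 knockdown cells with wild-type CARM1. Each form was sampled under vehicle and after 8 h of 5 μg/ml tunicamycin, which blocks N-linked glycosylation and so causes endoplasmic reticulum stress, with 3 libraries in each of the 6 groups. XBP1 was lowered with 1 lentiviral short hairpin RNA. CARM1, an arginine methyltransferase and transcriptional coactivator, was cut with a CRISPR vector carrying 1 guide. The sources used here do not say whether the knockout cells were 1 clone, nor which vector the control cells of this experiment carried. The assay was 3′ mRNA-seq, in which a read marks the end of a transcript, so counts were not divided by gene length and the levels of different genes are not compared.

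Total counts ran from 9367462 to 13917212 per library. XBP1 itself was lowered but not lost in the knockdown, from 45.9 to 25.4 CPM (read counts scaled to library size) under vehicle and from 150 to 71.6 CPM under tunicamycin (log2 fold changes of -0.86 and -1.06, adjusted p = 2.54e-05 and 5.43e-09, edgeR quasi-likelihood test). CARM1 counts in the knockout were 74.2 against 162 CPM under vehicle; a 3′ read need not span the cut, so this level is no check of the knockout. Each targeted gene also differed from control in the other form. By the same test, XBP1 in the knockout was at -0.47 under vehicle (adjusted p = 0.00133) and -0.06 under tunicamycin (adjusted p = 0.244). CARM1 in the knockdown was higher by 0.22 and 0.37 (adjusted p = 0.017 and 0.000177). HSPA5, the endoplasmic reticulum chaperone BiP, rose with tunicamycin in every form, by 3.08 on the log2 scale in control cells. The 6 CARM1 knockout libraries stood apart from the other 12. Correlations of log2 CPM were 0.986 to 0.989 within groups, 0.961 to 0.987 between control and knockdown, and 0.73 to 0.775 between the knockout and either of the others. Epithelial keratin KRT7 averaged 0.573 CPM in control and 412 CPM in knockout libraries under vehicle, while KRT19 averaged 0.745 and 0 CPM. Collagen gene COL1A2 averaged 823 and 0.247 CPM, and COL1A1 averaged 15 and 479 CPM. PAX8, which marks tumours of Müllerian origin, was at 0.0503 CPM in control and 61.2 CPM in knockout libraries under vehicle, and MUC16, the CA125 antigen, had 0 counts in all 18 libraries. The summed level of the 9 epithelial markers was 311 to 332 CPM in control, 131 to 144 CPM in knockdown and 2679 to 2773 CPM in knockout libraries under vehicle, and that of the 5 fibroblast markers was 810 to 890, 816 to 861 and 462 to 501 CPM. For the 6 genes below, loss of CARM1 and any other difference between the knockout cells and the other cells cannot be told apart. In the knockdown, lower XBP1 and any other effect of the short hairpin RNA or its vector cannot be told apart either. Nor can fewer cells expressing a gene and less RNA per cell.

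XBP1 is a transcription factor of the unfolded protein response. When misfolded proteins build up in the endoplasmic reticulum, the kinase and nuclease IRE1 splices XBP1 mRNA, and the spliced form, XBP1s, turns on chaperones, glycosylation enzymes and secretory transport genes. It binds elements with an ACGT core. None of the 6 genes is in the list of textbook XBP1s targets used below. AK4 is a mitochondrial matrix nucleotide phosphotransferase, and CDK6 is a cyclin D-dependent kinase that phosphorylates the retinoblastoma protein at the start of the cell cycle. VCAN encodes versican, a large chondroitin sulfate proteoglycan of the extracellular matrix that binds hyaluronan, and BAALC is a small membrane-associated protein best known as a marker gene of acute myeloid leukaemia. CHP1 is a calcium-binding relative of calcineurin B that binds the glycerol-phosphate acyltransferase GPAT4. CCM2L is a paralogue of the cerebral cavernous malformation protein CCM2 and is mostly studied in endothelium.

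In the contrast that chose them, the 3 knockdown libraries lay wholly above the 3 control libraries for AK4, CDK6, VCAN and BAALC and wholly below them for CHP1 and CCM2L, under both treatments. Among all genes tested, 12.6% lay wholly above and 11% wholly below under vehicle, and 15.7% and 15.8% did so under tunicamycin. Ranked by log2 fold change under vehicle among the 9744 genes with an average log2 CPM of at least 3, AK4, CDK6, BAALC and VCAN held places 1 to 4 from the top, with 2.34, 1.72, 1.58 and 1.55. The next gene was ENSG00000272098 at 1.38, whose libraries overlapped between the groups, and then ARHGDIB at 1.12. From the bottom, CCM2L was in place 3 at -1.79, after ITGB1P1 at -1.97, whose libraries overlapped, and the long noncoding RNA H19 at -1.85, and just before the keratin gene KRT8 at -1.61 and the receptor kinase gene AXL at -1.47. CHP1 was in place 14 at -1.26. Among all 17317 genes tested, AK4, CDK6, BAALC and VCAN were in places 91, 190, 211 and 216 from the top under vehicle. CCM2L and CHP1 were then in places 300 and 475 from the bottom. Under tunicamycin AK4, CDK6 and VCAN again held places 1 to 3 of 9672 genes, with 2.5, 1.99 and 1.55, followed by the methyltransferase gene N6AMT1 at 1.41. CHP1 was then in place 3 from the bottom at -1.6, while BAALC and CCM2L averaged 2.42 and 2.84 on the log2 CPM scale and so were not ranked.

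**Figure D1:**
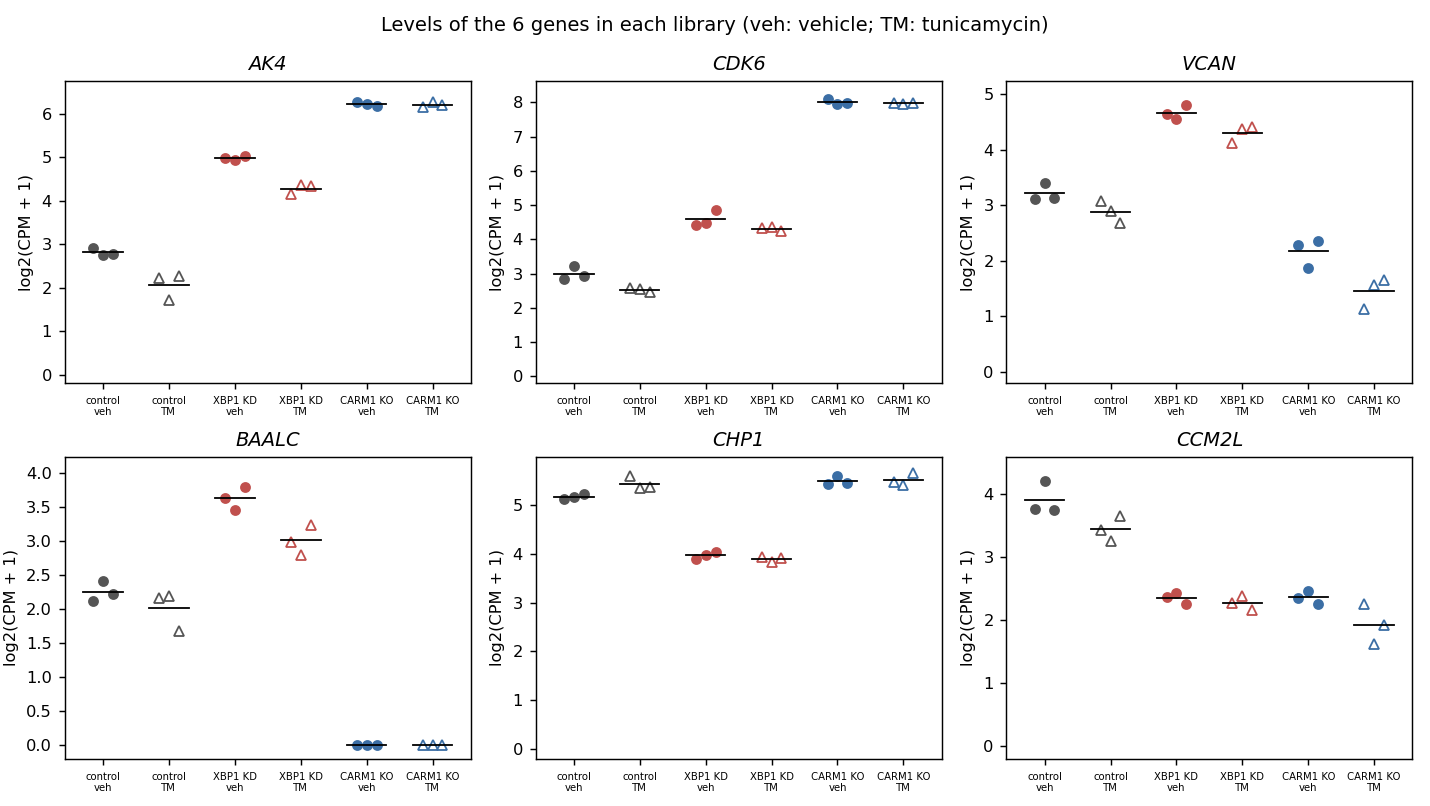
Level of each of the 6 genes as log2(CPM + 1) in all 18 libraries, by genotype and treatment; each point is 1 library and each line a group mean. AK4 and CDK6 stand highest in the CARM1 knockout, VCAN and BAALC highest in the XBP1 knockdown, BAALC is at 0 in all 6 knockout libraries, CHP1 is lowest in the knockdown, and CCM2L is low in both.

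AK4 (ENSG00000162433, hg19 chromosome 1, 65613232 to 65697828, plus strand) had the highest knockdown to control ratio of the ranked genes. Among all 17317 genes tested it was in place 91 from the top under vehicle and 117 under tunicamycin. Its level was 6.5, 5.75 and 5.83 CPM in the control libraries under vehicle, and 3.66, 2.31 and 3.8 CPM under tunicamycin. In the knockdown it was 30.5, 29.6 and 31.7 CPM under vehicle, and 16.8, 19.5 and 19.2 CPM under tunicamycin. In the CARM1 knockout it was 76.8, 73.8 and 72.3 CPM, and 70.7, 76.6 and 72.9 CPM. The 3 forms of the line thus formed 3 separate levels under either treatment, lowest in control and highest in knockout. Knockdown exceeded control 5.06-fold under vehicle (log2 fold change 2.34, SE 0.102) and 5.64-fold under tunicamycin (2.5, SE 0.169; 2.3 without the second control library under tunicamycin). The knockout exceeded control 12-fold under vehicle (log2 fold change 3.58, SE 0.088, adjusted p = 8.16e-15) and 22.5-fold under tunicamycin (4.49, SE 0.118, adjusted p = 4.4e-14). Of the 6 group means, only the 2 of the knockout, 74.3 ± 2.32 and 73.4 ± 2.98 CPM (SD, n = 3), were neighbours whose libraries overlapped.

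CDK6 (ENSG00000105810; hg19 chromosome 7, 92234235 to 92465887, minus strand) had the same order of groups as AK4. In control libraries it was at 6.19, 8.33 and 6.63 CPM under vehicle and at 4.99, 4.87 and 4.48 CPM under tunicamycin. In the knockdown it was at 20.6, 21.5 and 28.1 CPM, and at 19.3, 19.4 and 18 CPM. The knockout libraries had 272, 247 and 251 CPM, and 253, 247 and 254 CPM. Every knockout library was thus far above every knockdown library, and every knockdown library above every control library. The knockdown to control ratio was 3.3 under vehicle (log2 fold change 1.72, SE 0.144; 1.58 without the third knockdown library) and 3.96 under tunicamycin (1.99, SE 0.13). The knockout to control ratio was 35.3 under vehicle (5.14, SE 0.085, adjusted p = 7.98e-17) and 52.8 under tunicamycin (5.72, SE 0.0695, adjusted p = 1.64e-17). The antisense gene CDK6-AS1 beside it had group means of 0.0878 to 1.94 CPM and rose in the knockout under vehicle, from 0.181 to 1.89 CPM (adjusted p = 0.000545).

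Since AK4 and CDK6 stood above control in both genotypes, their promoters are shown with short motifs that form parts of elements XBP1s is known to bind. A match to a short motif does not show binding by XBP1s, which was not tested. The windows are those of RefSeq on GRCh38.p14, from 250 bases before to 50 after a start site, 300 bases in all. AK4 has 4 windows, CDK6 has 2, and VCAN and CHP1 have 1 each. CCM2L had no window, and BAALC was not searched. Capitals mark every match to ACGTG or CCACG on either strand, and overlapping matches run into 1 stretch. The first and second windows of AK4 (chr1:65147302-65147601 and chr1:65147603-65147902, plus strand) and both windows of CDK6 (chr7:92833910-92834209 and chr7:92836524-92836823, minus strand) are the ones with ACGTG.
AK4 window 1: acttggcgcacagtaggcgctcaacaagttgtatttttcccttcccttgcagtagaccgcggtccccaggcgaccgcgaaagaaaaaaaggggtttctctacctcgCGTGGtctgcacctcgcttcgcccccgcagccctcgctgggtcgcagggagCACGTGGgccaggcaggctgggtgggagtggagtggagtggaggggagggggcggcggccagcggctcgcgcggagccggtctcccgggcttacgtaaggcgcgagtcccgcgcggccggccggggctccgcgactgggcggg
AK4 window 2: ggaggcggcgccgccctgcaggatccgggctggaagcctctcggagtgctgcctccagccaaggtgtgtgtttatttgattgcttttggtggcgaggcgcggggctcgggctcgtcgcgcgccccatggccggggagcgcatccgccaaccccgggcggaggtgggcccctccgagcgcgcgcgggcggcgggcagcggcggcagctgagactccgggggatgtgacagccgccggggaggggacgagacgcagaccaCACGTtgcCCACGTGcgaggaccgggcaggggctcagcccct
CDK6 window 1: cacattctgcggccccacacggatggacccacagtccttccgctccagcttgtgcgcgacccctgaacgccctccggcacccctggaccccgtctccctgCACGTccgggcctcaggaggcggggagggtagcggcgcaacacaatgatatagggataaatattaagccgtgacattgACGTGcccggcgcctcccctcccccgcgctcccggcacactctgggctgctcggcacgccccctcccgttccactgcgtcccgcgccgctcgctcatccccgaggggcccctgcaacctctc
CDK6 window 2: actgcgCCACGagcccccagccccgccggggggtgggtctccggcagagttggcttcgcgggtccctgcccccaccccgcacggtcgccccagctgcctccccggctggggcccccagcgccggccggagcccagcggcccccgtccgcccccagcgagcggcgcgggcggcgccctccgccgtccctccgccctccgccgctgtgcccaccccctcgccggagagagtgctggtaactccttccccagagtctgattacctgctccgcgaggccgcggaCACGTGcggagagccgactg

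In AK4 window 1 a palindromic ACGTG pair starts 93 bases before the start site, and in window 2 matches lie at 9, 18 and 19 bases after it. In CDK6, window 1 has its matches at 150 and 72 bases before the start site, and window 2 has its pair at 31 and 32 bases after it. Counted over the 8 windows of the 4 genes, ACGTG was in 4 and CCACG in 5, all of them in AK4 or CDK6. Among all 35116 RefSeq windows of this length, 21.4% hold ACGTG and 38.1% hold CCACG. By gene, ACGTG was in 2 of the 4 and CCACG in 2 of the 4. The share by gene over all of RefSeq was not counted, and a gene with more windows has more places for a match. Windows of the same gene are not independent, and enrichment was not tested. The longer elements were not in any of the 8 windows: the unfolded protein response element TGACGTGG (in 0.729% of all windows), the endoplasmic reticulum stress element, CCAAT followed after 9 bases by CCACG (0.0769%), and its second form, ATTGG and CCACG 1 base apart (0.0541%). The windows of VCAN and CHP1 held no match to any of the motifs.

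VCAN (ENSG00000038427; hg19 chromosome 5, 82767437 to 82878122, plus strand) stood above control in the knockdown and below it in the knockout. Its level in control libraries was 7.66, 9.5 and 7.77 CPM under vehicle and 7.48, 6.44 and 5.39 CPM under tunicamycin. Knockdown libraries had 23.9, 22.6 and 26.9 CPM, and 16.5, 19.8 and 20.3 CPM. Knockout libraries had 3.88, 2.68 and 4.12 CPM, and 1.2, 1.98 and 2.15 CPM. No neighbouring pair in the order of the 6 groups overlapped. The knockdown exceeded control 2.93-fold under either treatment (log2 fold change 1.55 in both, SE 0.116 and 0.144). In the knockout VCAN fell to 0.413 of control under vehicle (log2 fold change -1.28, SE 0.191, adjusted p = 1.99e-05) and to 0.281 under tunicamycin (-1.83, SE 0.234, adjusted p = 4.42e-06).

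BAALC (ENSG00000164929; hg19 chromosome 8, 104152941 to 104242533, plus strand) had 29 to 59 counts per control library. Control libraries had 3.33, 4.35 and 3.68 CPM under vehicle and 3.49, 3.55 and 2.2 CPM under tunicamycin. Knockdown libraries had 11.4, 10 and 12.9 CPM, and 6.91, 5.97 and 8.44 CPM. All 6 knockout libraries had 0 counts, so BAALC, like VCAN, was above control in one genotype and below it in the other. The knockdown exceeded control 3-fold under vehicle (log2 fold change 1.58, SE 0.16) and 2.32-fold under tunicamycin (1.21, SE 0.221). Against a floor of 3 counts per library, the knockout level of BAALC was at least 13.7-fold lower than control under vehicle and at least 12.6-fold lower under tunicamycin (adjusted p = 8.24e-08 and 6.28e-07). The antisense gene BAALC-AS1 had 0 to 10 counts per library and a mean of 0.517 CPM in control, 0.557 CPM in knockdown and 0.508 CPM in knockout libraries under vehicle. Whether strand was used in counting is not given in the sources used here, so reads of the overlapping pair may not be told apart.

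CHP1 (ENSG00000187446; hg19 chromosome 15, 41523037 to 41574085, plus strand) was lower in the knockdown than in either other form. It stood at 33.6, 35 and 36.3 CPM in control libraries under vehicle and at 47.2, 39.6 and 40.1 CPM under tunicamycin. Knockdown libraries had 13.9, 14.8 and 15.3 CPM, and 14.3, 13.3 and 14 CPM. Knockout libraries had 41.9, 47.5 and 42.5 CPM, and 43.5, 41.5 and 49 CPM. The 6 knockdown libraries thus lay within 13.3 to 15.3 CPM, and the lowest of the other 12 was at 33.6 CPM. The knockdown was at 0.418 of control under vehicle (log2 fold change -1.26, SE 0.0863) and at 0.329 under tunicamycin (-1.6, SE 0.0959). Against control, the knockout was 1.22-fold higher under vehicle (0.29, SE 0.0763, adjusted p = 0.00335). Under tunicamycin the difference was 0.086 (95% interval -0.08 to 0.25, adjusted p = 0.369), and 0.18 without the first control library (adjusted p = 0.0577).

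A processed pseudogene of CHP1, CHP1P2, lies on chromosome 6 (hg19 160514455 to 160515025, plus strand) inside the gene IGF2R on the same strand. By exact match, it shares none of its 497 stretches of 75 bases, the read length, with the 9 annotated CHP1 transcripts, and 64 of its 547 stretches of 25 bases (11.7%). Stretches that differ by a few bases were not counted. Whether reads of CHP1 were assigned to CHP1P2, or the reverse, was not tested. In the knockdown it fell from 18 ± 1.88 to 12.7 ± 1.55 CPM (SD, n = 3) under vehicle (log2 fold change -0.51, adjusted p = 0.0229) and from 20.4 ± 1.12 to 13.4 ± 1.39 CPM under tunicamycin (-0.6, adjusted p = 0.00165). The vehicle call was lost without the first control library (adjusted p = 0.0729), the third control library (0.0611), the second knockdown library (0.0669) or the third (0.0952). IGF2R, its host gene, fell by 0.3 on the log2 scale under vehicle (adjusted p = 0.0476), a call lost without any 1 of 4 of the 6 libraries, and had a log2 fold change of -0.12 under tunicamycin (adjusted p = 0.332). With the counts of CHP1 and CHP1P2 added, the level was 53 CPM in control and 27.4 CPM in knockdown libraries under vehicle, and 62.7 and 27.3 CPM under tunicamycin. The pseudogene held 34% of that sum in control and 46.3% in knockdown libraries under vehicle, so CHP1 differed from control by more than the sum did: -0.96 for the sum under vehicle and -1.2 under tunicamycin.

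**Figure D2:**
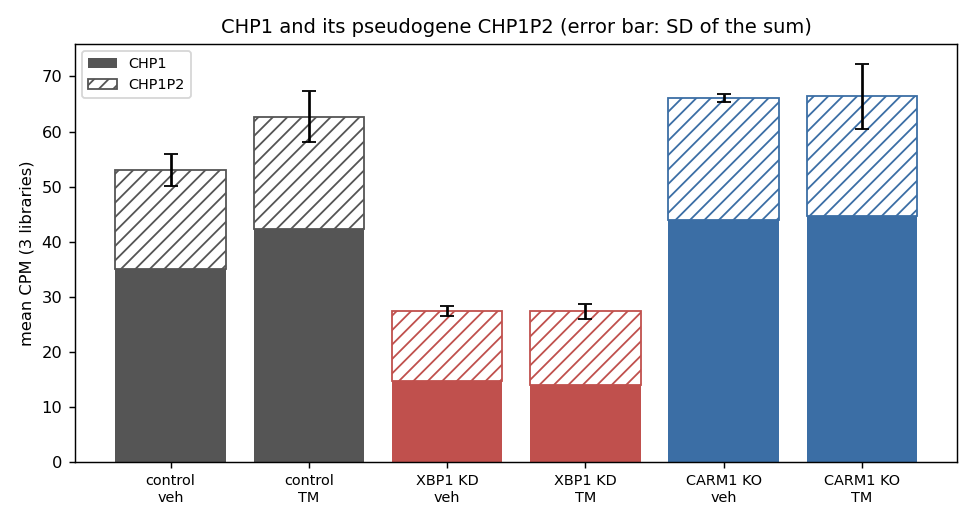
Stacked mean CPM of CHP1 and its pseudogene CHP1P2 in the 6 groups (3 libraries each), with the SD of the sum as error bar. The sum is 53 CPM in control and 27.4 CPM in XBP1 knockdown libraries under vehicle, and most of the gap is in the CHP1 part of the bars.

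CCM2L (ENSG00000101331; hg19 chromosome 20, 30598241 to 30619983, plus strand) was lower in both genotypes than in control. In control libraries it was at 12.5, 17.5 and 12.4 CPM under vehicle and at 9.73, 8.5 and 11.5 CPM under tunicamycin. Knockdown libraries had 4.14, 4.4 and 3.79 CPM, and 3.81, 4.21 and 3.48 CPM. Knockout libraries had 4.12, 4.53 and 3.78 CPM, and 3.77, 2.06 and 2.78 CPM. The 4 groups of knockdown and knockout libraries overlapped each other in order, and all 6 control libraries lay above them. The knockdown was at 0.29 of control under vehicle (log2 fold change -1.79, SE 0.166) and at 0.387 under tunicamycin (-1.37, SE 0.177). In the knockout CCM2L fell to 0.286 of control under vehicle (-1.81, SE 0.173, adjusted p = 1.3e-07) and to 0.29 under tunicamycin (-1.79, SE 0.205, adjusted p = 1.41e-06). Of the 8 endothelial markers in the table, 3 never passed 3 counts, among them KDR at 0 in all libraries, while TIE1 had 41 to 100 counts and EGFL7 11 to 99 counts per library, and ERG averaged 0.0223 CPM in control and 5.8 CPM in knockout libraries under vehicle. The summed level of the 8 markers was 6.96 to 7.59 CPM in control, 6.55 to 8.87 CPM in knockdown and 19.8 to 23.1 CPM in knockout libraries under vehicle, and its part in the level of CCM2L was not tested.

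Set against control, AK4 and CDK6 in the CARM1 knockout thus stood on the side they held in the knockdown, and further from control. CCM2L also stood on the side it held in the knockdown. VCAN and BAALC stood on the other side of control, and CHP1 was slightly higher under vehicle. In counts, 3 of the 6 genes rose and 3 fell in the knockout under vehicle, and 2 rose and 3 fell under tunicamycin. The share of all genes tested that was called higher was 37.5% under vehicle and 38.4% under tunicamycin, and the share called lower was 36.9% and 36.8%. Calls in this comparison were thus common over the whole table. Knockdown and knockout share the 6 control libraries, so the ratios of either genotype to control are not independent of each other.

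**Figure D3:**
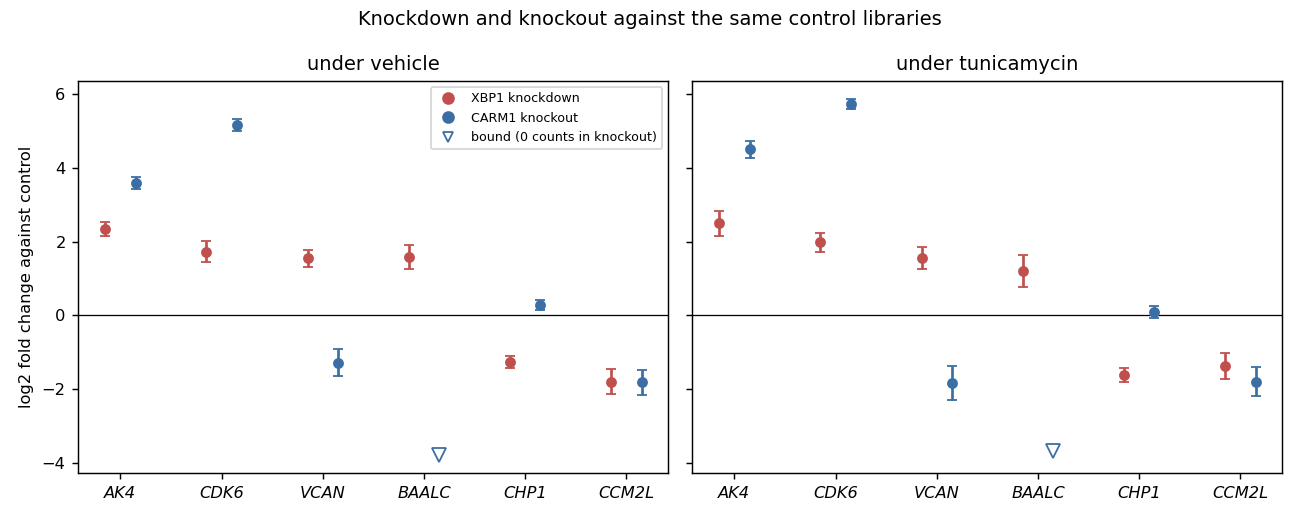
Log2 fold change of each gene in XBP1 knockdown and in CARM1 knockout against the same control libraries, under vehicle (left) and tunicamycin (right), with 95% intervals; the open triangle for BAALC is a bound from 0 counts. AK4 and CDK6 are above 0 in both genotypes, CCM2L is below 0 in both, and VCAN and BAALC change sides between them.

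Tunicamycin responses of the 6 genes were tested in control cells and, with no library that entered the choice of genes, in CARM1 knockout cells. In control cells AK4 fell by 0.87 on the log2 scale (SE 0.206, adjusted p = 0.00262), CDK6 by 0.55 (SE 0.172, adjusted p = 0.0168) and CCM2L by 0.5 (SE 0.157, adjusted p = 0.017), while CHP1 rose by 0.29 (SE 0.0847, adjusted p = 0.012). VCAN differed by -0.36 (SE 0.164, adjusted p = 0.0944) and BAALC by -0.29 (SE 0.237, adjusted p = 0.366), and neither passed the test. That is 1 gene higher and 3 lower of 6, where 22% of all genes tested were higher and 19.9% lower. The calls of CDK6, CCM2L and CHP1 were each lost when certain single libraries were left out. CDK6 was lost without the second control library under vehicle (-0.42, adjusted p = 0.0974) or the third under tunicamycin (-0.51, adjusted p = 0.0561). CCM2L was lost without the second under vehicle (-0.32, adjusted p = 0.127) or the second under tunicamycin (-0.41, adjusted p = 0.0702), and CHP1 without the first under tunicamycin (0.19, adjusted p = 0.102). Without that last library VCAN passed (-0.49, adjusted p = 0.0427).

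In knockout cells VCAN fell by 0.95 (SE 0.275, adjusted p = 0.00846), the only call among the 5 genes with counts there, against 18.8% of all genes called lower and 20.6% called higher. AK4 and CDK6 stayed within narrow limits, at 0.016 (95% interval -0.086 to 0.12) and 0.0041 (-0.074 to 0.082), and CHP1 at 0.059 (-0.085 to 0.2). CCM2L was lower in all 3 tunicamycin libraries, by 0.5 on the log2 scale (interval -0.96 to -0.045), without passing the test (adjusted p = 0.0962), and it passed without the first knockout library under tunicamycin (-0.74, adjusted p = 0.0253). The response of AK4 differed between knockout and control cells by 0.86 (SE 0.17, interval 0.53 to 1.2, adjusted p = 8e-04, interaction term) and that of CDK6 by 0.54 (SE 0.139, interval 0.26 to 0.81, adjusted p = 0.00767). For VCAN, CHP1 and CCM2L the interaction was -0.6, -0.25 and -0.026 (adjusted p = 0.189, 0.147 and 0.982). These are 2 genes with a higher response in the knockout and 0 with a lower one, beside 10.5% and 12.4% of all genes tested. The lower count was 0 by DESeq2 too, and 1 (CHP1) at an unadjusted p under 0.05. BAALC, at 0 throughout the knockout, was not compared.

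In knockdown cells, whose libraries all entered the choice, tunicamycin libraries lay wholly below vehicle libraries for AK4 (-0.74), BAALC (-0.69), VCAN (-0.39) and CDK6 (-0.32), and overlapped them for CHP1 (-0.086) and CCM2L (-0.11). Between treatments, the log2 ratio of knockdown to control differed by 0.14 for AK4, 0.24 for CDK6, -0.018 for VCAN, -0.39 for BAALC, -0.37 for CHP1 and 0.4 for CCM2L. Single libraries moved some of these values. Without the third knockdown library under vehicle, the response of CDK6 was -0.16 and its difference 0.39. Without the second control library under tunicamycin the difference of AK4 was -0.055, and without the first that of CHP1 was -0.26. With 1 library left out, the difference of BAALC ran from -0.59 (without the third control library under tunicamycin) to -0.27 (without the first), and that of CCM2L from 0.22 (without the second control library under vehicle) to 0.52 (without the third under tunicamycin).

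**Figure D4:**
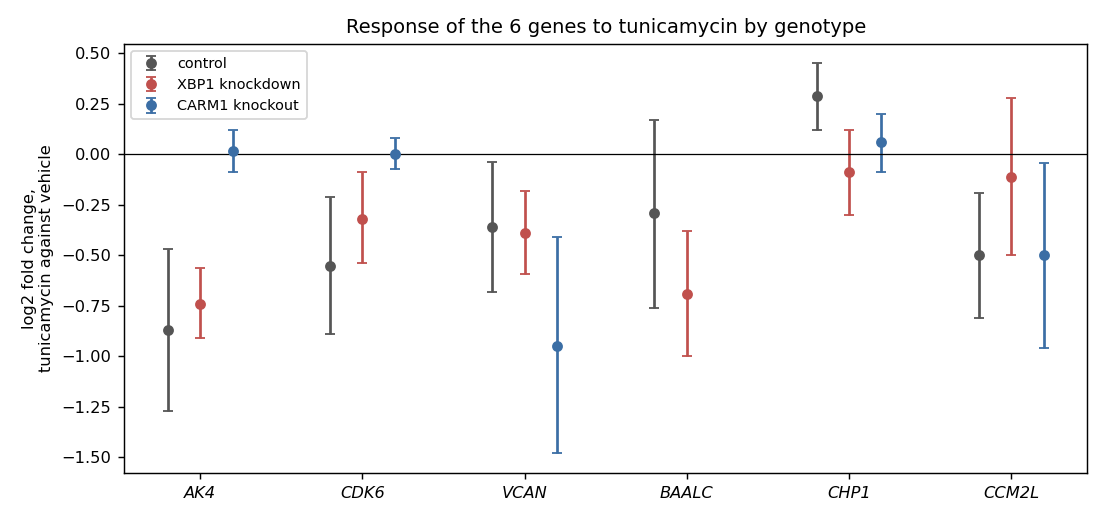
Log2 fold change of each gene, tunicamycin against vehicle, in control, XBP1 knockdown and CARM1 knockout cells, with 95% intervals; BAALC has no knockout value because its counts there were 0. AK4 and CDK6 lie below 0 in control and knockdown cells and at 0 in the knockout. The knockdown libraries entered the choice of genes, so the knockdown points and intervals carry no test.

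To see whether the 6 genes differed alone on their chromosomes, the 3 nearest tested genes at each side were taken, 36 in all. In the knockdown 1 rose and 3 fell under vehicle, and 2 rose and 4 fell under tunicamycin, with 4 not tested for low counts. Over all genes tested the shares were 2.07% higher and 3.03% lower under vehicle, and 6.99% and 8.55% under tunicamycin. The clearest of these neighbours was XKR7, a gene of the XK-related membrane protein family that ends 7.05 kb before CCM2L on chromosome 20 (hg19 30555954 to 30591190). XKR7 was at 4.94 to 7.5 CPM in control and 1.99 to 2.71 CPM in knockdown libraries under vehicle, and at 3.47 to 4.25 and 0.662 to 1.62 CPM under tunicamycin. Its fold changes, -1.46 (SE 0.217, adjusted p = 0.00103) and -1.69 (SE 0.308, adjusted p = 0.00141), were on the same side as those of CCM2L and passed the test under every alternative that could be fitted. In the knockout XKR7 averaged 0 CPM under vehicle and 0.0265 CPM under tunicamycin. CCM2L and XKR7 were thus both lower in both genotypes.

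Beside BAALC, the proton pump subunit gene ATP6V1C1, 67.7 kb away, rose by 0.36 and 0.39 (adjusted p = 0.0432 and 0.00386), and the Wnt receptor gene FZD6, 68.1 kb away, rose by 0.43 under tunicamycin (adjusted p = 0.0249). Next to CHP1, the mitotic spindle gene NUSAP1 fell by 0.33 and 0.22 (adjusted p = 0.00666 and 0.0297) and OIP5-AS1 fell by 0.19 under tunicamycin (adjusted p = 0.0168). Of the genes around VCAN, TMEM167A fell by 0.49 under tunicamycin (adjusted p = 5.09e-05), and HAPLN1, whose product links proteoglycans such as versican to hyaluronan, was not called (0.25 and -0.017, adjusted p = 0.0741 and 0.944). Near AK4 the kinase gene JAK1 fell by 0.35 under vehicle (adjusted p = 0.0448), a call lost without any 1 of the 6 libraries. The calls of ATP6V1C1 under vehicle and of FZD6, OIP5-AS1 and NUSAP1 under tunicamycin were each lost without any 1 of 3 or 4 of the 6 libraries. Of the neighbours of CDK6, 0 were called in the knockdown by edgeR, by DESeq2 or at an unadjusted p under 0.05. In the knockout HAPLN1 averaged 0 CPM against 51.6 CPM in control under vehicle. There 18 of the 36 neighbours rose, 5 of the 6 beside AK4 among them, and 12 fell, where 37.5% of all genes tested were higher and 36.9% lower.

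**Figure D5:**
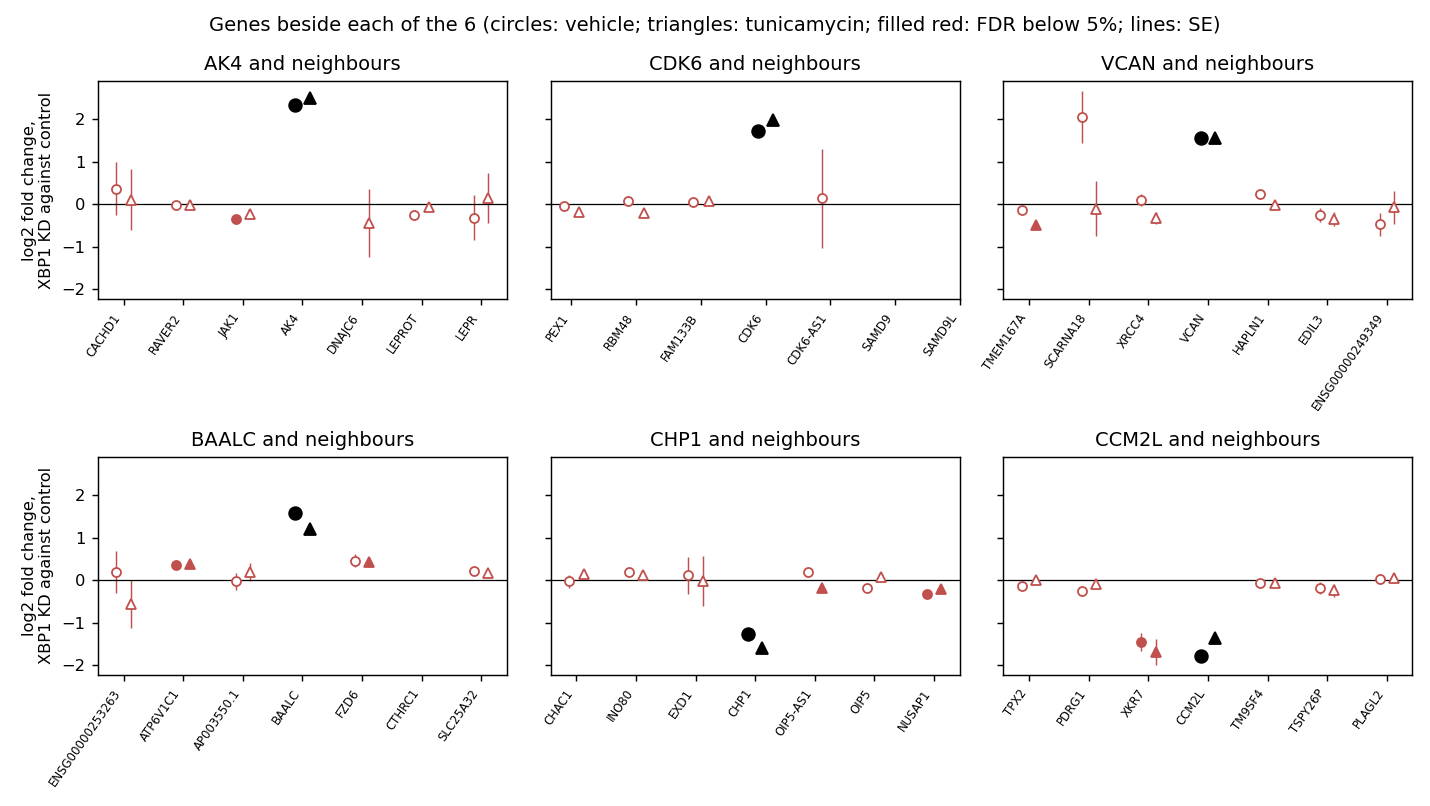
Log2 fold change of each of the 6 genes and of its 3 nearest tested neighbours at each side, XBP1 knockdown against control, under vehicle (circles) and tunicamycin (triangles); lines are SE, filled red symbols passed the test at an FDR of 5%, and the chosen gene itself is shown with no test. XKR7 beside CCM2L is the neighbour with the lowest values, -1.46 and -1.69.

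The other genes of each pathway were read from lists of textbook members. In the adenylate and guanylate kinase list around AK4, 1 of 9 tested genes was called under vehicle and 2 of 8 under tunicamycin, where 2.07% of all genes were higher under vehicle and 6.99% higher and 8.55% lower under tunicamycin. AK3, the other matrix enzyme of the family, rose by 0.23 under vehicle (adjusted p = 0.0483). Under tunicamycin the nuclear kinase gene AK6 rose by 0.19 (adjusted p = 0.0143) and the guanylate kinase gene GUK1 fell by 0.37 (adjusted p = 0.0106). AK4 is known as a hypoxia-responsive gene, and of a list of genes that respond to HIF, 2 of 15 tested rose under vehicle, the glycolytic regulator PFKFB4 by 0.97 (adjusted p = 0.0319) and PGK1 by 0.25 (adjusted p = 0.0169), and 1 of 16 under tunicamycin, LDHA by 0.19 (adjusted p = 0.00297), beside 2.07% and 6.99% of all genes. The number that fell was 0 under both treatments, by DESeq2 and at an unadjusted p under 0.05 as well. The calls of AK3, AK6, GUK1, PFKFB4 and PGK1 were each lost when 1 of 2 to 5 of the libraries was left out. The median log2 fold change of the HIF list was 0.12 under vehicle and -0.005 under tunicamycin, beside -0.0032 and 0.00084 over all genes.

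Of the 16 genes of the CDK4/6 and retinoblastoma circuit, 1 rose under vehicle and 3 under tunicamycin, beside 2.07% and 6.99% of all genes. By edgeR and DESeq2 0 fell, and at an unadjusted p under 0.05 there were 3 lower under vehicle and 1 under tunicamycin. CDKN2A, which encodes the CDK4/6 inhibitor p16, rose under both, by 0.66 (adjusted p = 0.000954) and 0.73 (adjusted p = 0.000101), and E2F3 and CCND2 rose by 0.3 and 0.21 under tunicamycin. The call of CCND2 was lost under 2 of 8 other settings, the 1.5-fold requirement among them, and under 0 of the fits with 1 library left out. The paralogue CDK4 (0.0037 and 0.17) and its cyclin gene CCND1 (0.011 and 0.05) did not pass the test. The medians of the list were 0.027 and 0.036.

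Of the 20 tested genes of the versican list (related proteoglycans, hyaluronan and chondroitin sulfate synthesis, and cleaving proteases), 2 fell under vehicle (3.03% of all genes), and 5 fell and 1 rose under tunicamycin (8.55% and 6.99% of all genes; 4 and 1 by DESeq2). The chondroitin polymerising factor CHPF2 fell from 30 to 14.7 CPM under tunicamycin (log2 fold change -1.02, adjusted p = 6.65e-05), and CHPF fell by 0.54 (adjusted p = 1.56e-05). Under vehicle both were near control, at -0.0013 and -0.058. The gene that rose was the xylosyltransferase XYLT2, by 0.46 under tunicamycin (adjusted p = 0.0124, lost without any 1 of 2 of the 6 libraries). The chondroitin sulfotransferase CHST11 and the synthase CHSY1 fell by 0.92 and 0.34 under vehicle, calls lost without any 1 of 4 and 5 of the 6 libraries. Under tunicamycin VCAN was thus higher in the libraries in which CHPF2 and CHPF, which take part in building the sugar chains of such proteoglycans, were lower.

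BAALC is known to bind MEKK1, and 2 of 10 tested genes of the MEKK1 and ERK list rose under vehicle and 4 of 10 under tunicamycin, beside 2.07% and 6.99% of all genes. By edgeR and DESeq2 0 fell, and 1 was lower under tunicamycin at an unadjusted p under 0.05. The ERK feedback genes DUSP6 and SPRY4 rose by 0.28 and 0.3 under vehicle (adjusted p = 0.00277 and 0.0207) and by 0.58 and 0.88 under tunicamycin (adjusted p = 7.78e-07 and 3.61e-06), and SPRY2 rose by 0.36 under tunicamycin (adjusted p = 0.000329). The SPRY4 call under vehicle was lost without any 1 of 3 of the 6 libraries. MAP3K1, the gene of MEKK1 itself, was at 0.057 and 0.26 and did not pass the test. The medians of the list were 0.05 and 0.21.

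Of the genes around CHP1 (calcineurin subunits and related proteins and glycerol-phosphate acyltransferases among them), 2 of 12 tested fell under vehicle, and 3 of 10 fell and 1 rose under tunicamycin (2 and 1 by DESeq2), beside 3.03% lower under vehicle and 8.55% lower and 6.99% higher under tunicamycin over all genes. PPP3CB and PPP3CA, the catalytic subunits of calcineurin, fell under both treatments, PPP3CB by 0.42 (adjusted p = 0.00111) and 0.77 (adjusted p = 4.59e-07), and PPP3CA by 0.24 and 0.31, the first of these lost without any 1 of 4 of the 6 libraries. GPAT4, whose product CHP1 binds directly, was at 0.016 and 0.12 and did not pass the test. Under tunicamycin the other acyltransferase gene, GPAM, was at 0.43 and RCAN1 at -0.41. Their calls changed without any 1 of 2 and any 1 of 5 of the 6 libraries.

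Of the 15 genes of the cerebral cavernous malformation complex and MEKK3 signalling, 1 fell under vehicle, and 4 rose and 1 fell under tunicamycin, beside 3.03% lower, 6.99% higher and 8.55% lower over all genes. HEG1, the membrane receptor that anchors the complex, was the gene that fell in both, by 0.71 (adjusted p = 0.0172, lost without any 1 of 3 of the 6 libraries) and 0.57 (adjusted p = 0.0118). RAP1A, the GTPase that recruits the complex, rose by 0.51 under tunicamycin (adjusted p = 0.000932), while its effector RASIP1 rose by 1.2 (adjusted p = 0.0151) in a call that did not hold with each library left out. KRIT1 (-0.12 under vehicle), which binds HEG1, and MAP3K3 (-0.044 under vehicle), the gene of MEKK3, did not pass the test, and the medians of the list were 0.052 and 0.082.

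For reference, 18 textbook targets of XBP1s all rose with tunicamycin in control cells (median log2 fold change 2.4). There CHP1 rose, while AK4, CDK6 and CCM2L fell. The calls of CHP1, CDK6 and CCM2L were each lost without certain single libraries, as given above. In the knockdown 1 of the 18 was higher and 1 lower under vehicle, and 15 were lower under tunicamycin (8.55% of all genes), SEC24D, a coat protein gene of secretory vesicles, falling from 105 to 45.9 CPM (-1.19, adjusted p = 5.43e-09). The median of the 18 was -0.37 under tunicamycin.

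The genes whose level ran most like that of a chosen gene were found by Pearson's r of log2 CPM over libraries. These r share libraries, depth and the split between the forms of the line, and carry no test. Over the 12 control and knockdown libraries, the 4 genes on the higher side had r of 0.926 to 0.988 between pairs. CHP1 and CCM2L, on the lower side, had r of 0.91 with each other. These 12 libraries are the ones that chose the genes, so a high r within a side follows largely from the choice. Whether the genes share regulation was not tested. VCAN was among the 3 genes most like AK4 (0.972), CDK6 (0.988) and BAALC (0.969). CDK6 was also close to SF3B3 (0.989), a splicing factor gene, CHP1 was closest to SEMA3D (0.988) and CCM2L to NR2F2 (0.977). With the knockout libraries added, r over all 18 stayed high for AK4 with CDK6 (0.945) and for VCAN with BAALC (0.92), but became -0.345 for AK4 with VCAN. The genes most like each then changed, to TPP1 for AK4 (0.97), PYGL for CDK6 (0.996), ANKRD18A for VCAN (0.964), CBR3 for BAALC (0.991), MYO5A for CHP1 (0.933) and PALM3 for CCM2L (0.891).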

How the data were processed

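Gene expression was measured by 3′ mRNA-seq (75 nt single reads) in 18 libraries of 6 groups. The authors deposited 1 table of RSEM expected counts per Ensembl gene on hg19 (RSEM 1.2.3 in the submitters' processing notes); the deposited counts are whole numbers, so nothing was rounded, and 0 of its columns were left unused. Groups and replicate numbers were taken from the labels, which do not say whether replicates were separate cultures, so p-values measure the spread between these libraries, which may be technical.

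The 6 genes and the gene lists were chosen with earlier results of these data known. Genes were tested in R 4.3.3 with edgeR 4.0.16: filterByExpr (minimum count 10 over all 18 libraries, 17317 of 57736 genes), TMM scaling, and the two-sided quasi-likelihood F test on the groups compared, without a replicate block, with Benjamini-Hochberg adjustment over all genes tested and a call at an FDR of 5%. The knockdown contrast, which chose the 6 genes, was tested for other genes only. With 3 against 3 libraries, the smallest p of an exact permutation test is 0.1. SE was taken as the size of the log2 difference over the root of its F value, and intervals were 1.96 SE either side. CPM were TMM-scaled over the 18 libraries. Where a group had 0 counts, a bound was set at 3 counts per library; bounds cover counting error only. Total counts of 9367462 to 13917212 put this floor at 0.276 CPM in knockout libraries under vehicle and 0.245 CPM under tunicamycin.

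Genes were named by a fixed rule: the 6 genes, the targeted genes and HSPA5, the genes ranked next to them, 3 tested neighbours at each side, the 3 genes with the highest r, and at most 3 called genes per list and contrast. CDK4, CCND1, GPAT4, KRIT1, MAP3K3, MAP3K1, IGF2R and CHP1P2 beyond that rule were named after their values were seen. Positions are GENCODE annotation of hg19. Promoters came from RefSeq (GRCh38.p14) and were looked up for all of the 6 genes but BAALC. AK4, CDK6, VCAN and CHP1 had windows there, and CCM2L had none. The fit was checked on simulated counts. DESeq2 1.42.0, other scaling, other filters, a fit of all 18 libraries, a replicate block, stricter thresholds and leaving out each library were tried as alternatives.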

Additional observations from a re-analysis of the deposited data

Results flagged for a closer look

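The tunicamycin response of AK4 differed between CARM1 knockout and control cells by 0.86 on the log2 scale (SE 0.17, adjusted p = 8e-04, edgeR interaction term), and that of CDK6 by 0.54 (SE 0.139, adjusted p = 0.00767). In control cells AK4 fell by 0.87 and CDK6 by 0.55, and in the knockout the changes were 0.016 and 0.0041. All 3 tunicamycin libraries of control cells lay below the vehicle libraries for either gene, while the knockout libraries overlapped. The control libraries in this comparison also entered the choice of the 6 genes, so the interactions are not independent of it. Over all genes tested, 10.5% had a higher response in the knockout. The knockout libraries stand apart from the others over the whole table, and the part of this in the difference was not tested.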

How the results depend on the processing

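No called result turned its direction under any alternative run. Of the counts of the 6 genes called, those of the tunicamycin response in control cells moved: 1 higher and 3 lower became 0 and 1 at an FDR of 1%, and 0 and 1 with a 1.5-fold change required as well. With each library left out they ran from 0 to 1 higher and from 1 to 4 lower. In knockout cells the 1 gene that fell with tunicamycin became 1 to 2, and the 2 genes with an interaction became 1 with a 1.5-fold change required and 2 with each library left out. For the neighbours called in the knockdown under vehicle, 4 became 11 with all 18 libraries in 1 fit, 2 at an FDR of 1%, 1 with 1.5-fold and 2 to 6 with each library left out. Under tunicamycin 6 became 3, 1 and 3 to 7. Of the listed genes, 13 called under vehicle became 20 with no filter on low counts, 5 at an FDR of 1%, 4 with 1.5-fold and 6 to 20 with each library left out, and 40 called under tunicamycin became 25, 9 and 29 to 41. The libraries behind these ranges were, for listed genes under vehicle, control libraries 1, 2 and 3 (7, 6 and 20 without them) and knockdown libraries 2 and 3 (6 and 6). For neighbours under vehicle they were control library 1 and knockdown libraries 2 and 3 (2 without each), and under tunicamycin they were control library 3 and knockdown library 3 (3 without each). The cause was not tested, save that a stricter threshold calls fewer genes by construction. Over all genes, 359 rose and 524 fell in the knockdown under vehicle, and 632 and 746 did so with no filter, 696 and 724 with all 18 libraries, 125 and 252 at an FDR of 1%, and 79 and 237 with 1.5-fold. The interaction called 1814 genes higher and 2151 lower, 2375 and 1745 with no filter, and 2295 and 1729 with at least 10 counts in every library. Deviations of same-numbered libraries from their group means had r of -0.048 to 0.0387 over 21 pairs, with 0 above 0.1. Same-numbered libraries thus shared no visible deviation, which does not settle whether the samples were paired. With the number as a replicate block, the neighbours called in the knockdown were 3 under vehicle and 6 under tunicamycin, the listed genes 12 and 43, and the counts of the 6 genes did not change. Depth limits BAALC in the knockout to a bound, and its interaction could not be fitted.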
